A study of Mus musculus with 4 samples.

Results

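ATP-binding cassette (ABC) genes were followed in the mouse neuroblastoma line Neuro-2a after exposure to the pyrethroid insecticide deltamethrin. The members were all probe sets whose gene symbol began with Abca to Abcg followed by a digit. They numbered 48 probe sets for 48 genes, out of 22206 probe sets and 19505 named genes. Levels are deposited log2 values from Clariom S Mouse arrays, which read the messenger RNA of a gene with short probes along it. The exposed group held 2 arrays of cells given 30 µM deltamethrin for 24 h. The control group held 2 arrays of cells given the vehicle, 0.1% DMSO, for 24 h. The labels state no DMSO content for the exposed cells. All arrays share the one tumour line of strain A origin and its serum-containing medium. Since no source states whether the arrays stand for separate cultures, each p-value reflects only how far these arrays differ, and that spread may be technical. Arrays of one group differed by 0.37 for deltamethrin and 0.33 for vehicle on the log2 scale (SD of the difference over all probe sets).

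ABC proteins couple the binding and hydrolysis of ATP to movement of a substrate, usually across a membrane. Subfamilies A and G mostly move lipids and sterols, parts of B, C and G export drugs and conjugated metabolites, and D serves peroxisomes and lysosomes. Subfamilies E and F lack membrane-spanning segments and act on ribosomes. In the nervous system the drug pumps are best known from the capillary wall of the blood-brain barrier, and in neuroblastoma ABCC1 is known as a drug resistance gene.

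The lineage markers of the line were present. Of 10 sympathoadrenal and neuroblastoma markers 7 were measured, with group means between 8.27 and 16.56 on the deltamethrin arrays and between 9.53 and 16.71 on the vehicle arrays, all above the median level of all probe sets (5.60). Their 7 estimates were below 0 (median -0.50) and 0 were called, beside 0.432% of all probe sets. With a mean-variance trend in the fit, which called 3.63% of all probe sets, the transcription factor gene Isl1 (-1.14 ± 0.17) passed (adjusted p = 0.00173). The part of these markers in the results was not tested. Among markers of other cells that carry many ABC pumps or could be present, 0 of 5 endothelial, 1 of 5 macrophage (Ptprc), 0 of 4 measured fibroblast and 0 of 4 astrocyte genes lay above that median. In such bulk RNA, fewer cells of a type and less RNA per cell cannot be told apart.

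No ABC gene passed the test for a change with deltamethrin. Of the 48 members 0 were called in limma at a Benjamini-Hochberg adjusted p below 0.05, where 0.432% of all probe sets were. The smallest adjusted p among members was 0.199, for Abcc9. At an unadjusted p below 0.05 there were 8 members (16.7%), 4 higher and 4 lower, beside 13.7% of all probe sets. The arrays of the groups did not overlap for 20 members (41.7%), beside 43.9% of all probe sets. By these counts the family stood close to the background of the whole array.

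Estimates were small on both sides of 0. In deltamethrin-treated cells 24 members had a higher and 24 a lower estimate, and the median log2 fold change was -0.01, against -0.02 over all probe sets. The highest was that of Abcb6, at 1.52-fold, and the lowest that of Abca1, at 0.639-fold, whereas the smallest fold called anywhere on the array was 2.32 in either direction. For 39 members (81.2%) the 95% interval of the fold change lay within 2-fold either way, as it did for 84.5% of all probe sets. The other 9 intervals reached past 2-fold on one side, so for them a change of that size lay within the error of 2 arrays per group. On the mean over all arrays, 18 members lay above the median level of all probe sets and 30 below it. The members below that level are called dim here. The interval lay within 2-fold for 13 of the 18 members above the median level (72.2%), beside 84% of all probe sets above it. Among the 30 dim members it did so for 26 (86.7%). The table gives no detection call, and a dim value may hold little signal.

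**Figure D1:**
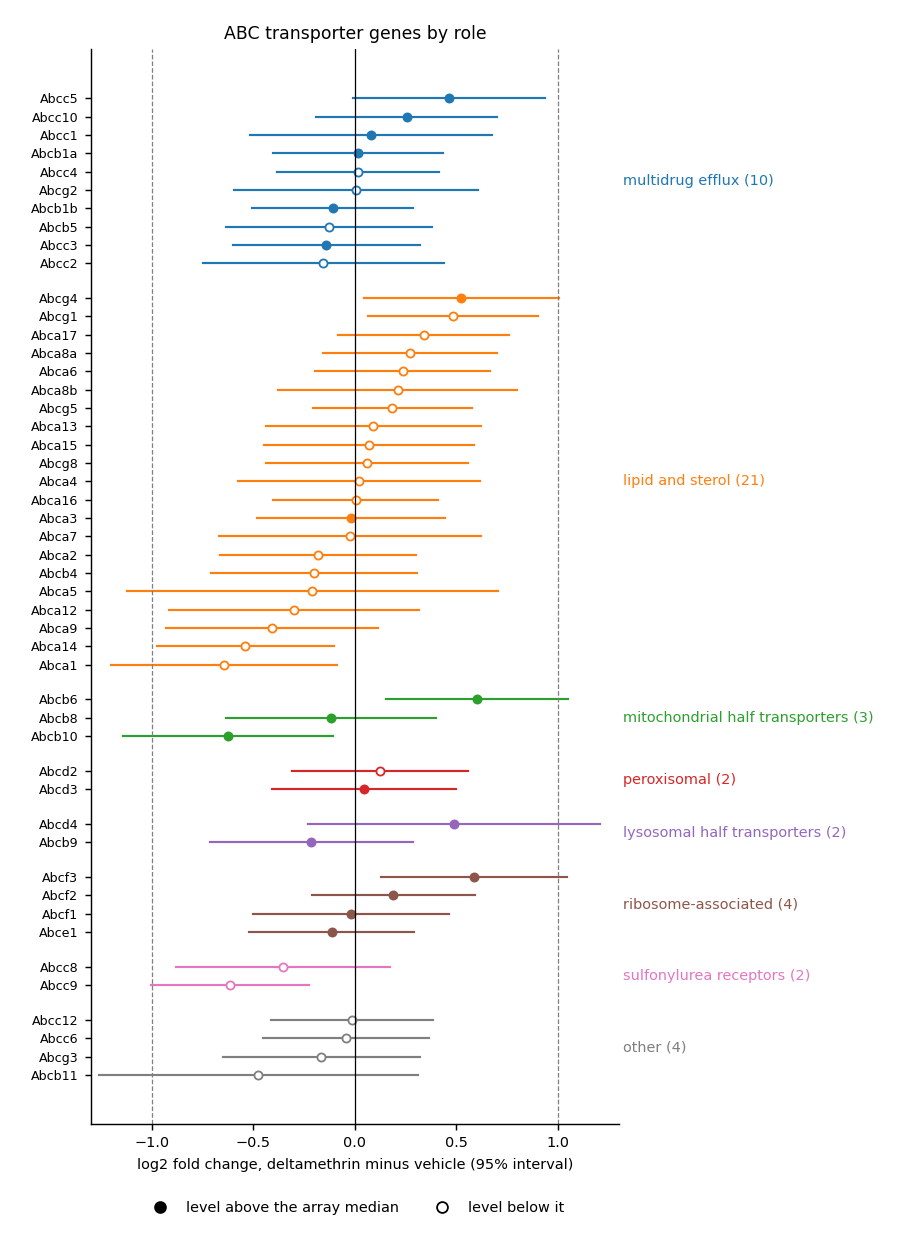
Log2 fold change of each ABC gene, deltamethrin minus vehicle (x axis), with its 95% interval from limma, grouped by role. Filled points mark genes whose mean level exceeds the median probe set, open points the dim ones, and dashed lines mark 2-fold. All 48 estimates lie between -0.65 and 0.60, and 39 intervals stay between the dashed lines.

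**Figure D2:**
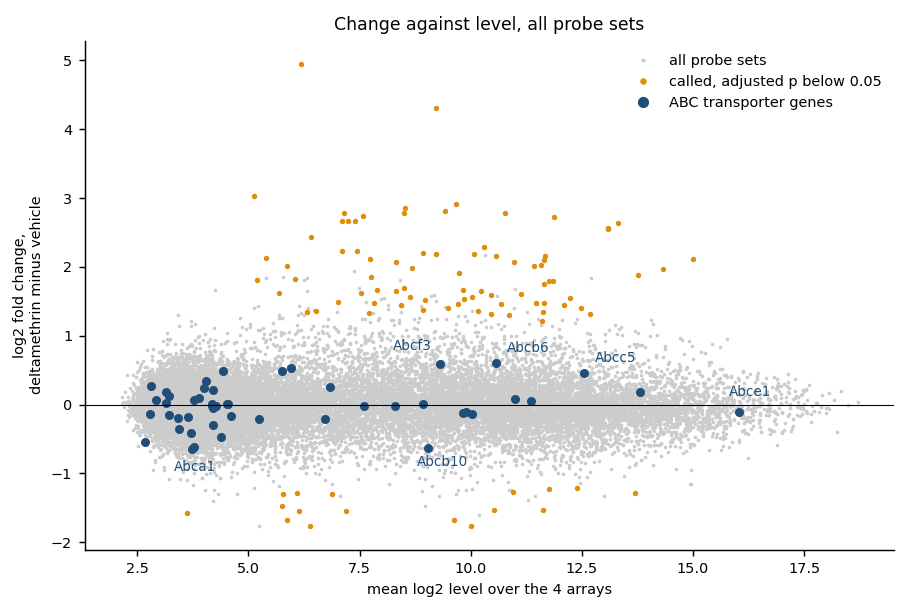
Log2 fold change (y axis) against the mean log2 level over the 4 arrays (x axis) for 22206 probe sets in grey, the 96 called ones in orange and the 48 ABC genes in blue. The ABC genes span much of the range of levels and lie inside the grey cloud, and none is among the orange points.

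The multidrug efflux pumps stayed near their controls. The 10 members had estimates from -0.16 to 0.47 with a median of 0.01, 0 were called, and all 10 intervals lay within 2-fold. Of the 10, 6 lay above the median level and 4 were dim, where a value may hold little signal. P-glycoprotein, the broad exporter of hydrophobic drugs, is encoded in mouse by Abcb1a and Abcb1b. Abcb1a was at 8.82 and 9.06 on the deltamethrin arrays, against 8.91 and 8.94 on the vehicle arrays. Abcb1b was at 9.79 and 9.91 on the deltamethrin arrays, against 9.98 and 9.94 on the vehicle arrays. The Abcb1a arrays overlapped, and both exposed Abcb1b arrays lay just below both controls. The estimates were 0.02 ± 0.17 for Abcb1a (SE, 95% interval -0.41 to 0.44, adjusted p = 0.983) and -0.11 ± 0.17 for Abcb1b (-0.51 to 0.29, adjusted p = 0.826). The genes are close copies, and whether probes of one also bind RNA of the other was not tested.

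Abcc1, which encodes the glutathione-conjugate exporter MRP1, was at 10.72 and 11.36 on the deltamethrin arrays, against 10.85 and 11.07 on the vehicle arrays. The exposed arrays thus lay on either side of the controls, and the estimate was 0.08 ± 0.25 (interval -0.52 to 0.68). The breast cancer resistance protein gene Abcg2 was dim, at 4.19 and 4.85 on the deltamethrin arrays, against 4.60 and 4.43 on the vehicle arrays, with an estimate of 0.01 ± 0.25. Abcc3, an exporter of bile acids and glucuronides, averaged 9.96 ± 0.18 on the deltamethrin arrays and 10.10 ± 0.19 on the vehicle arrays (SD, n = 2 each), and its arrays overlapped. The bile canalicular exporter Abcc2, the cyclic nucleotide and prostaglandin exporter Abcc4 and Abcb5 were dim, with estimates from -0.16 to 0.02.

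Abcc5 stood highest in the efflux group. It encodes MRP5, an exporter of cyclic nucleotides and of nucleotide analogues. Its levels were 12.60 and 12.98 on the deltamethrin arrays, against 12.26 and 12.39 on the vehicle arrays, so the groups did not overlap. The estimate of 0.47 ± 0.20 had an interval from -0.01 to 0.94 and did not pass (adjusted p = 0.371), and it was 0.28 without deltamethrin replicate 2. Abcc10, the MRP7 gene, followed with 7.01 and 6.91 on the deltamethrin arrays, against 6.86 and 6.55 on the vehicle arrays (0.26 ± 0.19, adjusted p = 0.605). The group's median depended on the array left out: it was 0.16 without deltamethrin replicate 1 and -0.14 without deltamethrin replicate 2.

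Several efflux pumps are textbook targets of NRF2, the transcription factor of the antioxidant response, which binds the antioxidant response element. On the same arrays the NRF2 targets Hmox1 and Srxn1 rose on the log2 scale, by 1.88 ± 0.19 (limma adjusted p = 0.0245) and 2.67 ± 0.18 (adjusted p = 0.0102). These 2 genes were chosen after their values were seen and do not stand for the NRF2 targets as a whole. Neither call held with a replicate block, which called 0 probe sets (limma adjusted p = 0.1995 for Hmox1 and 0.160 for Srxn1). The core of that element, TGACNNNGC, was therefore searched on both strands of the RefSeq promoter windows (build GRCm38.p6, 250 bases before to 50 after a start site). The members had windows for 38 of the 48 genes, 45 windows in all, and 7 of these (15.6%) held the core, beside 12.4% of all 32851 windows. By gene, 5 of 38 members held it, beside 14.0% of all 27025 genes with a window. Among the efflux pumps it was 4 of 8 genes, among the lipid transporters 1 of 18 and among the ribosome-associated genes 0 of 4, and these differences were not tested. Their matches are shown so that the element can be read beside the values of these pumps. The core is in capitals with 15 bases on each side, and its position counts from the start site.
Abcb1a, chr5:8567102-8567140, plus strand, core on the opposite strand at +27: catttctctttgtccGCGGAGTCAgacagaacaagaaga
Abcc2, chr19:43782195-43782233, plus strand, at -98: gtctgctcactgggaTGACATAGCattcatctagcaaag
Abcc4, chr14:118676931-118676969, minus strand, at -23: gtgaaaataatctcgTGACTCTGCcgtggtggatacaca
Abcc4, chr14:118706221-118706259, minus strand, core on the opposite strand at -25: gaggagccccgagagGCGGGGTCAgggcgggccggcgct
Abcc10, chr17:46328203-46328241, minus strand, at -203: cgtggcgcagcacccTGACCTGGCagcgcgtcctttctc
Abcc10, chr17:46325732-46325770, minus strand, at +12: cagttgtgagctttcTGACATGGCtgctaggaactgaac
These pumps had estimates of 0.02 for Abcb1a, -0.16 for Abcc2, 0.02 for Abcc4 and 0.26 for Abcc10, and none was called. A match is a description of letters in these windows and no evidence of binding.

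The lipid and sterol transporters held 21 members, of which 19 were dim. None was called, 12 estimates were above 0 and 9 below, the median was 0.02 and the range -0.65 to 0.53. The main sterol exporters had estimates of opposite sign. Abca1, which loads cellular cholesterol and phospholipid onto apolipoprotein A-I, was at 3.26 and 3.56 on the deltamethrin arrays, against 4.31 and 3.80 on the vehicle arrays. Abcg1, which passes cholesterol to high-density lipoprotein, was at 4.57 and 4.78 on the deltamethrin arrays, against 4.24 and 4.14 on the vehicle arrays. The groups overlapped for neither gene, but both were dim. The estimates were -0.65 ± 0.23 for Abca1 (adjusted p = 0.306) and 0.49 ± 0.17 for Abcg1 (adjusted p = 0.307), and the difference between them was not tested. The estimate of Abca1 was -0.39 without vehicle replicate 1 and -0.90 without vehicle replicate 2.

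Abcg4, the close relative of Abcg1 that exports sterols in neurons and glia, was at 6.08 and 6.35 on the deltamethrin arrays, against 5.85 and 5.53 on the vehicle arrays. Both exposed arrays lay above both controls, with an estimate of 0.53 ± 0.20 that did not pass (adjusted p = 0.331). Abca3, best known as the surfactant lipid transporter of the lung, was the other member of the group above the median level. Its arrays overlapped, at 8.18 and 8.39 on the deltamethrin arrays, against 8.15 and 8.46 on the vehicle arrays (-0.02 ± 0.19). Of the remaining members, the testis-expressed Abca14 had the lowest estimate (-0.54 ± 0.18, adjusted p = 0.283) at means of 2.40 on the deltamethrin arrays and 2.94 on the vehicle arrays. Abca17, Abca8a, Abca6, Abca8b, Abcg5, Abca13, Abca15, Abcg8, Abca4 and Abca16 lay between 0.01 and 0.34. Abca7, Abca2, the phosphatidylcholine floppase Abcb4 of bile, Abca5, the skin barrier lipid transporter Abca12 and Abca9 lay between -0.41 and -0.03. Abca5 was the most scattered member, at 4.51 and 5.74 on the deltamethrin arrays, against 5.35 and 5.32 on the vehicle arrays.

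The mitochondrial transporters, of which Abcb6 is also found on other membranes, held the largest opposite estimates among members above the median level. Abcb6, a porphyrin transporter linked to haem synthesis, was at 10.89 and 10.84 on the deltamethrin arrays, against 10.10 and 10.43 on the vehicle arrays. Abcb10, an inner-membrane transporter needed for haem formation in red cell precursors, was at 8.69 and 8.76 on the deltamethrin arrays, against 9.10 and 9.60 on the vehicle arrays. Both exposed arrays of Abcb6 lay above both controls, and both of Abcb10 below them. The estimates were 0.60 ± 0.19 for Abcb6 (interval 0.15 to 1.05, adjusted p = 0.254) and -0.63 ± 0.21 for Abcb10 (-1.14 to -0.11, adjusted p = 0.290). Neither passed, and the difference between them was not tested. Without vehicle replicate 2 the estimate of Abcb10 was -0.38. Abcb8, which has been tied to mitochondrial potassium and iron export, was at 9.99 and 9.53 on the deltamethrin arrays, against 9.77 and 9.99 on the vehicle arrays (-0.12 ± 0.21), with overlapping arrays.

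Genes around these transporters in haem synthesis had estimates above 0. Slc25a37, the mitochondrial iron importer mitoferrin 1 that binds ABCB10, was at 9.42 and 9.61 on the deltamethrin arrays, against 8.51 and 9.10 on the vehicle arrays. Its estimate was 0.71 ± 0.24 (adjusted p = 0.280). Alas1, the first enzyme of haem synthesis, had an estimate of 0.44 ± 0.19 and Fech, the last, one of 0.30 ± 0.19. None of these genes passed the test. The groups did not overlap for any of the 3, as for 52.9% of all probe sets above the median level.

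The ribosome-associated members were all above the median level and, except for Abcf3, close to their controls. Abce1 recycles ribosomes after termination by splitting their subunits. It was at 16.07 and 15.90 on the deltamethrin arrays, against 16.09 and 16.11 on the vehicle arrays, an estimate of -0.12 ± 0.17. Abcf1, which assists translation initiation, had overlapping arrays and an estimate of -0.02 ± 0.20. Abcf2 was at 13.90 and 13.92 on the deltamethrin arrays, against 13.64 and 13.80 on the vehicle arrays (0.19 ± 0.17, interval -0.21 to 0.59).

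Abcf3, a relative of the yeast activator Gcn20 of the eIF2α kinase Gcn2, had the highest estimate of that group. It was at 9.49 and 9.71 on the deltamethrin arrays, against 8.87 and 9.16 on the vehicle arrays, without overlap. The log2 estimate was 0.59 ± 0.19 (interval 0.13 to 1.04), a 1.50-fold difference, and did not pass (adjusted p = 0.270). Eif2ak4, the mouse gene of that kinase, had an estimate of 0.31 ± 0.25 with overlapping arrays. The release factor Etf1 and the ribosome rescue factor Hbs1l, which act before ABCE1, had estimates of -0.15 ± 0.17 and 0.05 ± 0.18.

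**Figure D3:**
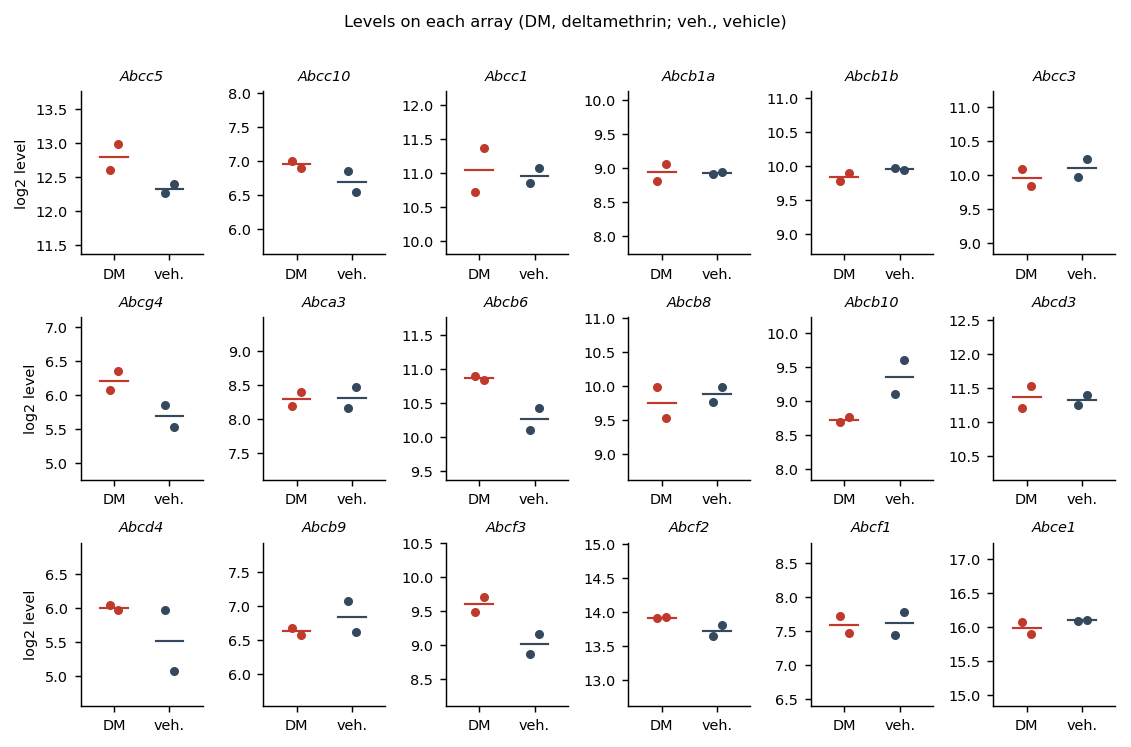
Log2 level of the 18 ABC genes that are not dim on each array, deltamethrin (DM, red) left and vehicle (veh., dark) right, with bars at the group means (n = 2 each). Every panel spans the same range of log2 units, so offsets can be compared. The groups do not overlap for 10 of the 18 genes, beside 52.9% of all probe sets above the median level. Both exposed arrays lie above both controls for Abcb6, Abcf3, Abcg4, Abcd4, Abcc5, Abcc10 and Abcf2, and below them for Abcb10, Abce1 and Abcb1b.

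The peroxisomal members lay near their controls. Abcd3, which imports branched-chain and dicarboxylic acyl-CoAs, was at 11.21 and 11.53 on the deltamethrin arrays, against 11.25 and 11.40 on the vehicle arrays (0.05 ± 0.19, interval -0.41 to 0.50). Abcd2, an importer of very long-chain acyl-CoAs, was dim (0.13 ± 0.18). The measured peroxisome partners, namely the biogenesis factors Pex3 and Pex19, the oxidation enzymes Hsd17b4 and Acaa1a and the acyl-CoA synthetase Slc27a2, lay between -0.05 and 0.17.

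The lysosomal pair had opposite signs with wide intervals. Abcd4, which releases cobalamin from lysosomes, was at 6.03 and 5.97 on the deltamethrin arrays, against 5.96 and 5.06 on the vehicle arrays. Its estimate of 0.49 ± 0.30 (adjusted p = 0.532) depended on the control arrays: without vehicle replicate 2 it was 0.04, and without vehicle replicate 1 it was 0.94. Its partner Lmbrd1, with which ABCD4 works in cobalamin release, was at 13.15 and 13.42 on the deltamethrin arrays, against 12.49 and 12.59 on the vehicle arrays. The Lmbrd1 groups did not overlap, with an estimate of 0.75 ± 0.18 that did not pass (adjusted p = 0.176). Mmachc, the cytosolic cobalamin chaperone, had an estimate of -0.13 ± 0.18. Abcb9, a lysosomal peptide transporter, had an estimate of -0.22 ± 0.21 with overlapping arrays.

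The sulfonylurea receptors, Abcc8 and Abcc9, regulate the pore of ATP-sensitive potassium channels and transport nothing. Abcc9 had the smallest adjusted p of all members, at 3.45 and 3.47 on the deltamethrin arrays, against 4.11 and 4.04 on the vehicle arrays. Both exposed arrays lay below both controls. The estimate was -0.62 ± 0.16 (adjusted p = 0.199), and that of Abcc8 was -0.36 ± 0.22. The pore genes Kcnj11 (-0.51 ± 0.20) and Kcnj8 (-0.29 ± 0.19) had estimates of the same sign. Over all probe sets 11744 estimates were below 0 and 10309 above, and among the 30 dim members 16 and 14. The shared sign of the channel genes was not tested. All 4 channel genes were dim on every array, so a low signal underlies each of these values. The other dim members outside these groups were the bile salt export pump gene Abcb11 (-0.48 ± 0.33), the rodent gene Abcg3 (-0.17 ± 0.20), the mineralisation gene Abcc6 (-0.05 ± 0.17) and Abcc12 (-0.02 ± 0.17).

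**Figure D4:**
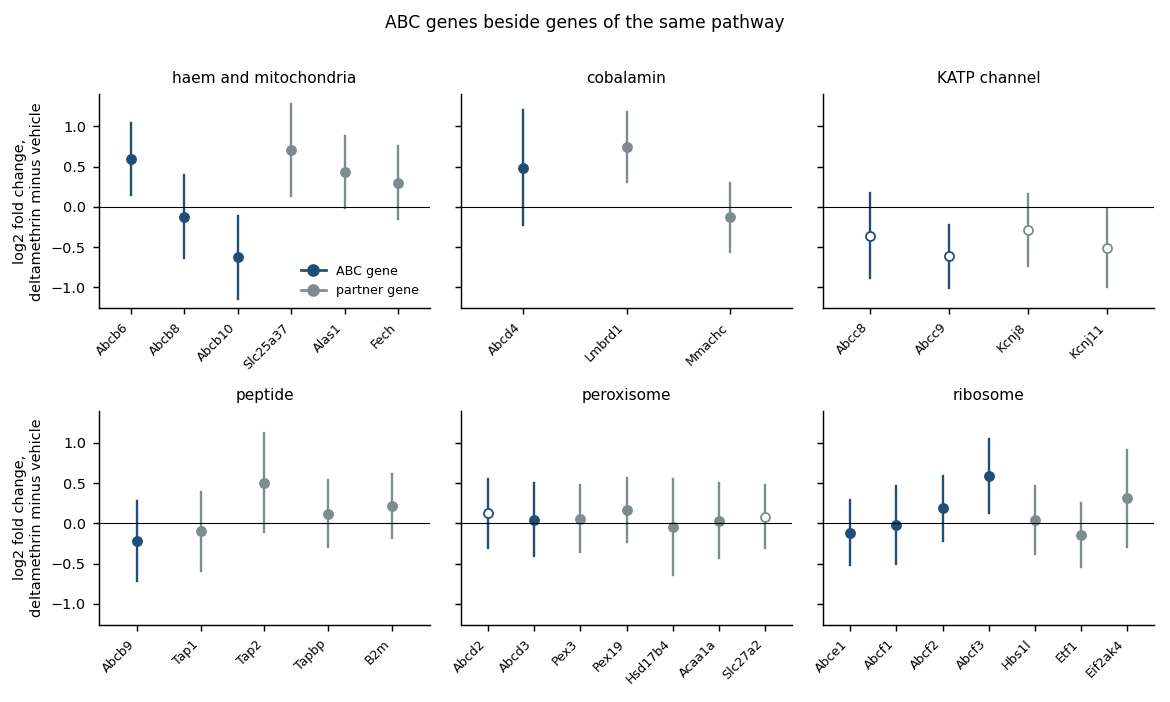
Log2 fold change, deltamethrin minus vehicle (y axis), with 95% intervals from limma, for ABC genes in blue and partner genes of the same pathway in grey. Open points are dim genes. Slc25a37 and Lmbrd1 have the highest partner estimates (0.71 and 0.75), the 4 channel genes are all below 0 and dim, and the peroxisome panel stays near 0.

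The ABC genes that carry other symbols did not pass the test either. The antigen peptide transporter genes Tap1 and Tap2 had estimates of -0.10 ± 0.21 and 0.51 ± 0.26, and the chloride channel gene Cftr, the ABC member C7, one of 0.14 ± 0.17. Of the wider list of 50 partner and regulator genes 40 were measured, 0 were called beside the same 0.432% of all probe sets, and the median was 0.06. Of these, 26 had a higher and 14 a lower estimate.

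The highest of that list were regulators. Pparg, a lipid-sensing nuclear receptor that promotes sterol export, was at 8.22 and 8.84 on the deltamethrin arrays, against 7.11 and 7.81 on the vehicle arrays (1.07 ± 0.31, adjusted p = 0.224). Tfe3, a transcription factor of lysosome genes, was at 10.96 and 10.91 on the deltamethrin arrays, against 10.05 and 10.03 on the vehicle arrays. Its estimate was 0.90 ± 0.16 (adjusted p = 0.105). With the mean-variance trend, Tfe3 (adjusted p = 0.0119) and Lmbrd1 (adjusted p = 0.0167) passed the test, while the ABC members still held 0 calls, beside 3.63% of all probe sets. Of the 806 probe sets called with the trend, 784 lay above the median level. Above it lay 18 of the 48 members and 28 of the 40 measured list genes. The drug-sensing receptors Nr1i2 and Nr1i3 and the dioxin receptor Ahr, which raise the expression of efflux pumps in liver and gut, were dim, with estimates of 0.04, 0.19 and 0.52. Nfe2l2, the NRF2 gene itself, had an estimate of 0.17 ± 0.17, and the liver X receptor gene Nr1h3 one of 0.07 ± 0.19.

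TFE3 binds E-boxes, and the letters CACGTG were present in windows of 6 member genes, in 13.3% of the 45 member windows and 7.15% of all windows. These were Abca1, Abca15, Abca8a, Abca8b, Abcc4 and Abcf1. By gene, 6 of 38 members held the letters, beside 8.09% of all 27025 genes with a window. The difference between these shares was not tested, and a match is no evidence of binding by TFE3. The matches of Abca1, which had the lowest estimate of the family, and of Abcf1, the only one of the set above the median level, are shown with 15 bases on each side.
Abca1, chr4:53160022-53160057, minus strand, at -147: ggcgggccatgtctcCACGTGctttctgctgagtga
Abcf1, chr17:35969831-35969866, minus strand, at -101: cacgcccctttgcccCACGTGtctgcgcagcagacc
The estimates were -0.65 for Abca1 and -0.02 for Abcf1, and those of all 6 genes ran from -0.65 to 0.27.

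Several members are neighbours in the genome (RefSeq positions, GRCm38.p6). Abcb1a, Abcb1b and Abcb4 lie at chr5:8567091-8959226, and Abcb4 was dim, unlike its neighbours, with an estimate of -0.20 ± 0.21. The 5 genes Abca8b, Abca8a, Abca9, Abca6 and Abca5 at chr11:109932206-110337723 were all dim, with estimates from -0.41 to 0.27. Abca14, Abca15 and Abca16 at chr7:120203927-120544892 ran from -0.54 to 0.07. The head-to-head sterol transporter genes Abcg5 and Abcg8 at chr17:84658174-84700333 had estimates of 0.19 ± 0.16 and 0.06 ± 0.21. Abcc5 and Abcf3, which had the highest estimates of the efflux and ribosome groups, lie within 230 kb at chr16:20331303-20561603. Another bright pair within 184 kb, Abcb8 and Abcf2 at chr5:24393681-24577467, had estimates of -0.12 and 0.19. Of the members with the largest estimates, Abcb6 lies at chr1:75171640-75180392, Abcb10 at chr8:123952459-123983122, Abca1 at chr4:53030789-53159988, Abcg1 at chr17:31057694-31117984, Abcg4 at chr9:44273188-44288656 and Abcc9 at chr6:142587862-142702766.

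By subfamily letter the medians were near 0 on the log2 scale. Subfamily A had a median of -0.01, B of -0.13 with 2 higher and 7 lower estimates, C of -0.03, D of 0.13, F of 0.19 and G of 0.12 with 5 higher and 1 lower. The single E gene, Abce1, stood at -0.12. Of the 6 G genes 5 were dim, as were 15 of the 16 A genes, and D and F held 3 genes each. Over all probe sets 10309 estimates were above 0 and 11744 below. None of the subfamilies held a called gene, and differences between them were not tested.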

How the data were processed

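RNA of 4 arrays (2 deltamethrin, 2 vehicle) was measured on Clariom S Mouse arrays. The deposited log2 values, 1 per probe set and array, came from RMA and Transcriptome Analysis Console, as named per the submitters' notes on processing; their versions are not given here. RMA as usually run aligns the arrays' distributions, which would hide a shift shared by most genes. Probe sets were named from GEO's platform table (19572 probe sets with 1 symbol, 2634 unnamed) and were set against RefSeq gene IDs, with 0 updated. Positions and promoter windows are RefSeq's (GRCm38.p6). All 22206 probe sets were fitted with limma 3.58.1 in R 4.3.3 (lmFit and eBayes, treatment only, two-sided, Benjamini-Hochberg over all probe sets, called at an adjusted p below 0.05). The fit had 2 residual and 4.43 prior degrees of freedom, and the number of arrays limits the precision (median SE 0.19). It was tested on simulated data. Lacking a batch label, any batch cannot be told apart from treatment. The members, role groups, lists and tests were chosen with earlier results of these data known. The promoter motifs and the neighbouring gene pairs were chosen after the values were seen.

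Members were named with array values where they were called or were on a list of 12 well-known genes. So were up to 4 largest estimates of each role group, among members whose brighter-group mean exceeded the median level. Of the members so chosen, Abcc3 is given by group means, and Abcf1 and Abcb9 by estimates. Of the partner list the 4 largest estimates above that level were taken. Other members are given by estimates, and Abcc9, Abca14, Abca5, Hmox1, Srxn1 and the remaining partners were chosen after their values were seen. Alternatives were a replicate block, a mean-variance trend, robust moderation, no moderation, a filter at the 40th percentile of level, quantile, median and cyclic loess scaling, leaving out each array, and adjusted p thresholds of 0.01 and 0.1.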

Additional observations from a re-analysis of the deposited data

How the results depend on the processing

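The count of 0 called ABC members held under every alternative run, with a smallest adjusted p between 0.0879 (Abcb6, mean-variance trend) and 0.678 (without vehicle replicate 1). The count over all probe sets, 96, was 0 with the replicate block and 0 without moderation, 806 with a mean-variance trend, 312 above the 40th percentile of level, 5 at an adjusted p below 0.01, 233 at one below 0.1, and 0 with any array left out, where the lone array is assumed to vary like the other group. The member count says nothing in the fits that called 0 probe sets. The numbers shared by the groups were not taken as pairs: same-numbered deviations correlated at 0.13 over probe sets, and no source links them. The block changed no call among members or partners, but those of Hmox1 and Srxn1 were lost under it, without moderation and with any array left out (adjusted p 0.160 to 0.678), and held at 0.05 in the other fits. Partner calls were 2 with the trend (Tfe3, Lmbrd1) and 1 above the 40th percentile (Tfe3, adjusted p = 0.0380), against 0. With an array left out, group medians ran from -0.14 to 0.16 for efflux pumps, -0.12 to 0.18 for lipid transporters and -0.0075 to 0.21 for ribosome-associated genes. They ran from -0.64 to -0.34 for sulfonylurea receptors, -0.35 to 0.11 for mitochondrial and -0.20 to 0.48 for lysosomal members. The peroxisomal median was 0.045 above the 40th percentile, where 1 gene was left, and 0.11 with cyclic loess. Many estimates changed sign. Abcb1a was at -0.0206 with quantile and -0.0101 with cyclic loess scaling. With an array left out, 36 to 41 of the 48 members had the sign of the main fit, depending on the array. The ranges were -0.11 to 0.14 for Abcb1a, -0.24 to 0.40 for Abcc1, -0.33 to 0.34 for Abcg2 and -0.18 to 0.14 for Abca3. They were -0.35 to 0.11 for Abcb8, -0.12 to 0.21 for Abcd3, -0.45 to 0.015 for Abcb9 and -0.20 to 0.16 for Abcf1. Other members, some with estimates further from 0, changed sign too, such as Abcb11 (-0.96 to 0.01), Abca12 (-0.655 to 0.055) and Abca5 (-0.825 to 0.405). The cause was not tested. The estimates of Abcb6 (0.44 to 0.77), Abcb10 (-0.88 to -0.38), Abcf3 (0.44 to 0.73) and Abcc5 (0.28 to 0.66) kept their sign with any array left out. That outcome was fixed in advance, because the groups of these genes did not overlap, as for 43.9% of all probe sets. Where groups do not overlap, leaving out 1 array cannot turn the sign.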
